A study of Arabidopsis thaliana with 18 samples.

Results

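The alternative splicing bins annotated with multiple events were followed in whole plants of Arabidopsis thaliana, in wild type of the Col ecotype (WT) and in the gemin2 mutant. A bin is a stretch of a gene between neighbouring annotated exon boundaries that some transcripts keep and others splice out, and an event of "multiple" means that the annotation allows more than 1 kind of alternative splicing there. Members were chosen by that annotation, by a bin mean of 10 counts or more over 18 libraries, and by a locus mean of 50 or more with no library under 10. This gave 615 members of the 1076 bins annotated so, in 315 loci, among 3809 bins of any event that passed the same filters. Of the others, 392 failed only the minimum on the bin and 69 failed the minimum on the locus, and 24 of the 1076 had no count at all. The lowest member, E006 of AT5G16800, had a mean of 10.06 counts, and the highest bin left out, E008 of AT1G17590, had 9.89. The value followed throughout is the share, which is the count of a bin as a percentage of the count of its locus. It is a ratio of 2 counts, since 1 read can be counted in several bins.

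Seeds were kept in the cold and dark first, and the plants then grew for 9 days on MS agarose in continuous white light. For each genotype, 1 group of 3 libraries stayed at 22 °C, and further groups of 3 spent the last 1 h or the last 24 h at 10 °C. All 6 groups share the cold start, the medium and the light, and each library was made from poly(A) RNA of pooled tissues of whole plants, so fewer cells of a type and less RNA per cell cannot be told apart. The labels name gemin2 as a mutant, and the headers of the authors' deposited splicing tables give the allele as gemin2-1. Nothing in the labels says that the libraries of a group come from different plantings, and p-values cover the spread between these libraries alone.

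GEMIN2 works in the complex that loads the ring of Sm proteins onto spliceosomal RNAs, a step in making small nuclear ribonucleoproteins (snRNPs). Introns usually begin with the dinucleotide GT, the donor site, and end with AG, the acceptor site, and snRNPs take part in recognising introns. Where several donors or acceptors lie close together, 1 piece of sequence can be an intron in some transcripts and part of an exon in others, and temperature is known to shift such choices in plants.

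Sequences of members that the results turn on are shown 5′ to 3′ on the transcribed strand, from the RefSeq assembly TAIR10.1, with a GT that opens a bin or an AG that closes it in capitals. They were chosen to show a whole alternative intron (CIPK3, MDAR6 and LNK2), donors that lie 3 or 4 bases apart (PIP1;2, AT3G14420 and AT4G36980), a bin with an acceptor alone (U2AF65A) and the outer 60 bases at each end of a long one (CSN7). The members lie at chr2:11515638-11515703 (minus strand), chr1:23732904-23732990 (plus), chr3:20178065-20178157 (minus), chr2:18911520-18911607 (plus), chr3:4821941-4822032 (plus), chr4:17434143-17434319 (minus), chr4:17294431-17294603 (minus) and, for the ends of CSN7 E006, chr1:388208-388267 and chr1:387673-387732 (minus).
CIPK3 E007: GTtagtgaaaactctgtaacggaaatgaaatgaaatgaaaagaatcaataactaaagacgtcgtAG
MDAR6 E018: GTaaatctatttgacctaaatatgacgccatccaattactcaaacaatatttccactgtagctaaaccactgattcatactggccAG
LNK2 E013: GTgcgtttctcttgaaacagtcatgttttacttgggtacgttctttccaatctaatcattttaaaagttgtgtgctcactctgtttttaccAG
PIP1;2 E004 and E005: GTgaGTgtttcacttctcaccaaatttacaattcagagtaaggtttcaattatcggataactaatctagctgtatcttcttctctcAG
AT3G14420 E009 and E010: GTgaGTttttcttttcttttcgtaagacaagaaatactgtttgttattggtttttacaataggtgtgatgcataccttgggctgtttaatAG
AT4G36980 E006 and E005: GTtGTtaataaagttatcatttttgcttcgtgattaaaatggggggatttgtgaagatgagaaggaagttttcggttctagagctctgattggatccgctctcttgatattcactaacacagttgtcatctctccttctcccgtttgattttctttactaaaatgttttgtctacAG
U2AF65A E006: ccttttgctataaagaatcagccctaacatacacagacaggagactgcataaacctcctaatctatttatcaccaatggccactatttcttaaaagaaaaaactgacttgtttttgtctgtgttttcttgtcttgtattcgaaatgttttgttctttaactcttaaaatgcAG
CSN7 E006 first: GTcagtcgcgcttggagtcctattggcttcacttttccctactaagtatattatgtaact
CSN7 E006 last: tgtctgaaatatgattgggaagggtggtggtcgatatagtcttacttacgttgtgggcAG

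Members were about as short as all tested bins and often lay in untranslated regions. Their width ran from 2 to 622 bases with a median of 42, and 138 were 10 bases or shorter, while the median over all tested bins was 48. In the RefSeq annotation, 600 of the 615 were exonic in at least 1 transcript and intronic in another. A total of 226 began with GT and ended with AG, 73 began with GT only, 272 ended with AG only and 44 did neither. A GT opened 48.6% of members and an AG closed 81%, against 53.5% and 83.4% of all tested bins. Coding sequence overlapped 55.1% of members, against 70.9% of all tested bins, and the 5′ untranslated region overlapped 43.7% against 24.6%. The 3′ untranslated region overlapped 113 of the 615 members and 457 of the 3809 tested bins. The length was a multiple of 3 in 44.4% of members and in 49.2% of all tested bins, and the median locus had 5 transcripts against 3. These differences describe the annotation and were not tested.

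Most members held a small part of their locus. The mean share ran from 0.0672% to 67.8% with a median of 5.23% and quartiles of 2.16% and 10.8%. A total of 76 members were under 1%, 5 were over 50% and 43 had no count in at least 1 library. Loci held up to 8 members, in AT2G05440, and 104 loci held 1. There were 280 pairs of members that touch each other in the genome, so members of a locus can share reads. Reads of 19 members may belong to another gene that overlaps them, since the library kit does not mark strand.

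The libraries held 15675913 to 53766089 gene counts. GEMIN2 stood at 2.88 to 5.66 CPM, counts scaled to library size, in the 9 gemin2 libraries and at 10.5 to 21.4 CPM in the 9 WT libraries, and the ranges did not overlap. In library C of gemin2 at 22 °C, 17.6% of counts fell on chloroplast genes, against 0.232% to 3.17% in the other libraries. Library A of gemin2 in the cold stood apart from B and C by a chi-square per bin, which grows with depth, of 28.7 and 27.2 after 1 h, against 3.8 between B and C, and of 21.9 and 18.2 after 24 h, against 4.57. Counts of called members are therefore also given without these 3 libraries, a choice made after seeing the data. Markers of green tissue, of roots and of dividing tissue were detected in every library, and so were PI, which marks floral organs, at up to 73 counts, and CRA1, a seed storage protein, at up to 80. AP3, a further floral marker, did not pass 6 counts, and SESA1, a further seed storage protein, did not pass 10.

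Between the genotypes, more members had a higher share in gemin2 than a lower one, in all 3 conditions. The comparisons ask which bins a plant with less GEMIN2 keeps or splices out at 22 °C and in the cold. At 22 °C, 17 members were higher and 10 lower, which is 4.39% of the 615, against 2.55% of all tested bins (1.76% higher and 0.788% lower). This excess of higher members at 22 °C depended on the settings. With only the compared groups in the fit 19 were higher and 21 lower, without the locus count as offset 39 and 47, and with a bin mean of at least 50 counts 7 and 7. After 1 h at 10 °C, 58 were higher and 16 lower, which is 12.0% against 8.48% of all tested bins (6.09% higher and 2.39% lower). After 24 h, 53 were higher and 7 lower, which is 9.76% against 5.8% (4.54% higher and 1.26% lower). The median log2 change over all 615 was 0.01, 0.10 and 0.10, against 0.02, 0.09 and 0.07 over all tested bins, so the bulk of members lay close to the bulk of bins. Whether the class differs from other bins was not tested.

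In these comparisons 111 members (18%) were called in at least 1 condition, against 12.3% of all tested bins. None of the 111 (0) was called in opposite directions in different conditions, while 25 of them had a change of the other sign in a condition where it was not called. The calls were edgeR quasi-likelihood tests with the locus count as offset, at a Benjamini-Hochberg adjusted p under 0.05. The counts depended on single libraries. At 22 °C, 15 members were called without WT library B and 14 without gemin2 library B. After 1 h the count was 37 without WT library A, 30 without WT library B, 34 without gemin2 library B, 36 without gemin2 library C and 126 without gemin2 library A. After 24 h it was 105 without gemin2 library A. Without the 3 libraries that stood apart, 40, 134 and 123 members were called at 22 °C, after 1 h and after 24 h. The share of all tested bins called was taken for the main fit alone. Counts under other settings therefore do not compare members with other bins. The largest rises and falls below were named only where the libraries of the 2 groups did not overlap. A lack of overlap in a comparison that named a member so was fixed by that choice and is no further support.

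**Figure D1:**
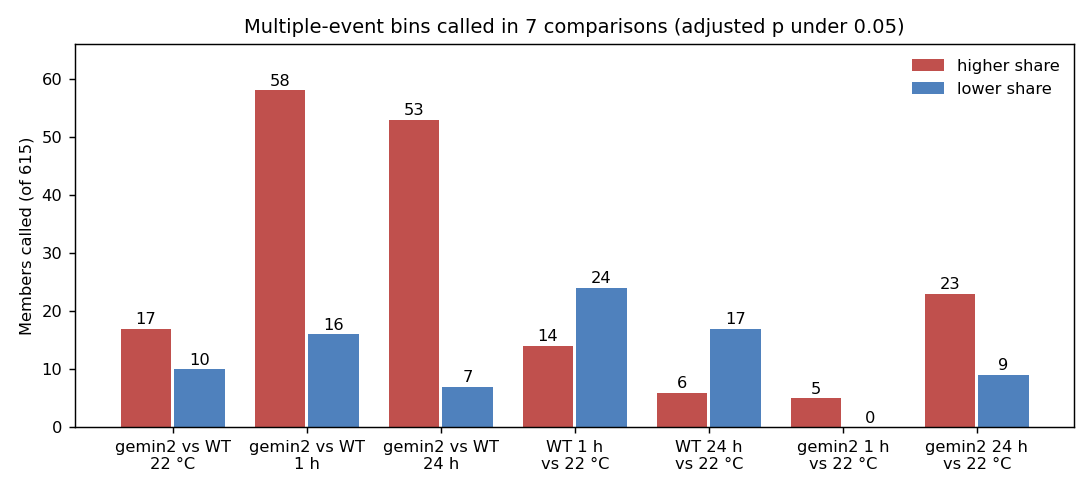
Number of members called (vertical axis, of 615) with a higher share (red) or a lower share (blue) in each of 7 comparisons (horizontal axis). Higher shares outnumber lower ones in the 3 comparisons of gemin2 with WT, by 17 to 10, 58 to 16 and 53 to 7, and lower shares outnumber higher ones in WT in the cold.

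CSN7, a subunit of the COP9 signalosome, which removes the ubiquitin-like protein NEDD8 from cullins, held neighbouring members that moved in opposite directions. E006 is the 595 bases at chr1:387673-388267 (TAIR10) that are coding in 1 annotated transcript and intronic in the others, and E005 is the 17 bases that follow it, from 387656 to 387672. The share of E006 in WT was 3.33%, 3.93% and 3.29% in libraries A, B and C at 22 °C, 4.20%, 4.10% and 3.89% after 1 h and 4.98%, 6.07% and 4.08% after 24 h. The gemin2 libraries had 14.1%, 13.4% and 14.2% at 22 °C, 10.6%, 13.7% and 14.2% after 1 h and 18.9%, 28.2% and 24.6% after 24 h. Every gemin2 library lay above every WT library. The log2 change was 1.99 ± 0.21 (SE; adjusted p = 3.21e-06) at 22 °C, 1.65 ± 0.19 (adjusted p = 6.83e-06) after 1 h and 2.23 ± 0.17 (adjusted p = 1.21e-08) after 24 h.

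The 17 bases of CSN7 E005, which end in an acceptor, did the reverse. The share of E005 in WT was 21.4%, 17.2% and 14% at 22 °C, 21.9%, 22.4% and 19.2% after 1 h and 20.7%, 18.3% and 17.8% after 24 h. The gemin2 libraries had 7.71%, 9.51% and 8.64% at 22 °C, 12.3%, 9.10% and 7.36% after 1 h and 6.99%, 2.31% and 3.87% after 24 h, below every WT library. The log2 change was -1.12 ± 0.24 (adjusted p = 0.00635) after 1 h and -2.14 ± 0.25 (adjusted p = 9.28e-06) after 24 h. At 22 °C it was -1.03 ± 0.26 (adjusted p = 0.0307), and this call was lost without WT library A (0.171) or B (0.0765) and without gemin2 library A (0.129), B (0.0646) or C (0.0984). The level of the whole CSN7 locus fell by 0.53 in log2 after 1 h (adjusted p = 0.000259), and its change was -0.19 at 22 °C and -0.05 after 24 h, neither of them called.

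Among members in genes of the ribosome and of RNA polymerases, AT2G27710 E003 had the largest rise. AT2G27710 encodes an acidic protein of the large ribosomal subunit's stalk, and E003 is an 85-base bin in the 5′ untranslated region at chr2:11816841-11816925, exonic in 1 transcript and intronic in the others. The share of E003 in WT ran from 0.0421% to 0.0980% at 22 °C, from 0.101% to 0.162% after 1 h and from 0.115% to 0.207% after 24 h. Those of gemin2 had 0.782%, 1.22% and 1.12% at 22 °C, 0.583%, 0.993% and 0.802% after 1 h and 1.91%, 2.54% and 2.58% after 24 h. The lowest gemin2 library was thus far above the highest WT library. The log2 change was 3.93 ± 0.37 (adjusted p = 4.71e-07), 2.69 ± 0.30 (adjusted p = 5.84e-06) and 3.99 ± 0.25 (adjusted p = 6.37e-10) at 22 °C, 1 h and 24 h. Counts were small in WT, with 13 over the 3 libraries at 22 °C, against 206 in gemin2. The locus level of AT2G27710 fell by 0.64, 0.48 and 0.44 in log2, opposite to the share of the bin.

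AT3G13580, of the ribosomal L30/L7 family, showed the same direction in E004, 247 bases of the 5′ untranslated region. Its share in WT lay between 0.346% and 1.02% over 9 libraries, from a mean of 0.657% ± 0.150 (SD, n = 3) at 22 °C to 0.766% ± 0.235 after 24 h. In gemin2 it was 2.58%, 2.13% and 1.90% at 22 °C, 2.49%, 2.73% and 3.05% after 1 h and 4.47%, 4.55% and 2.97% after 24 h. All gemin2 values exceed all WT values, with log2 changes of 1.72 ± 0.33 (adjusted p = 0.00342), 2.39 ± 0.29 (adjusted p = 1.47e-05) and 2.30 ± 0.26 (adjusted p = 6.50e-06).

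ATRPAC42, a subunit shared by RNA polymerases I and III, had the same direction in E012, 106 bases of its 5′ untranslated region. The share was 11.8% ± 2.15, 12.9% ± 2.19 and 14.7% ± 2.69 (SD, n = 3) in gemin2 at 22 °C, 1 h and 24 h. In WT it was 3.15% ± 2.47, 3.53% ± 2.97 and 1.48% ± 0.622, and library A of WT was high at 22 °C (6.0%) and after 1 h (6.86%). After 24 h the log2 change was 3.16 ± 0.37 (adjusted p = 7.76e-06). At 22 °C it was 1.86 ± 0.45 (adjusted p = 0.0267), and the call was lost without WT library B (0.120) or C (0.0932) and without gemin2 library A (0.0978) or B (0.0634). After 1 h it was 2.01 ± 0.43 (adjusted p = 0.00635), lost without WT library B (0.0504).

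CIPK3, a protein kinase that binds CBL calcium sensors, kept more of both of its members in gemin2. E007 is the 66-base alternative intron printed above, coding in 1 transcript, and E006 is the 18 bases after it, which end in a further acceptor. The share of E007 in WT was 0.609%, 0.290% and 0.844% at 22 °C, 2.20%, 1.07% and 0.836% after 1 h and 0.826%, 0.595% and 0.767% after 24 h. For gemin2 the values were 4.47%, 3.71% and 5.48% at 22 °C, 5.64%, 6.22% and 6.16% after 1 h and 4.46%, 7.12% and 5.56% after 24 h. No gemin2 library overlapped a WT library. The log2 change was 2.89 ± 0.33 (adjusted p = 9.20e-06), 2.26 ± 0.26 (adjusted p = 7.43e-06) and 3.09 ± 0.44 (adjusted p = 8.79e-05). E006 was higher as well, by 2.38 ± 0.42 at 22 °C (adjusted p = 0.00176) and 2.21 ± 0.33 after 1 h (adjusted p = 0.000217). After 24 h E006 was higher by 1.75 ± 0.48 (adjusted p = 0.0326), a call lost without WT library B (0.213) or C (0.0794) or gemin2 library B (0.159) or C (0.0973). It was also lost when the fit held only those 2 groups (0.112).

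PIP1;2, an aquaporin of the plasma membrane, has a pair of donors 4 bases apart before a common acceptor, and both bins were higher in gemin2. Shares were small in all libraries. For E005, the 84 bases from the inner donor to the acceptor, the share in WT was 0.158%, 0.172% and 0.230% at 22 °C, 0.0628%, 0.0576% and 0.101% after 1 h and 0.137%, 0.126% and 0.104% after 24 h. For gemin2 the values were 0.530%, 0.583% and 0.547% at 22 °C, 0.237%, 0.528% and 0.426% after 1 h and 0.310%, 0.527% and 0.725% after 24 h. Each gemin2 library was above each WT library of its condition. The log2 change was 1.58 ± 0.30 (adjusted p = 0.00333), 2.36 ± 0.30 (adjusted p = 2.69e-05) and 2.06 ± 0.36 (adjusted p = 0.000744).

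For the 4 bases of PIP1;2 E004 the log2 changes were 1.3 ± 0.29 (adjusted p = 0.0133), 2.00 ± 0.29 (adjusted p = 0.000116) and 1.64 ± 0.35 (adjusted p = 0.00462). The call at 22 °C was lost without WT library A (0.0738) or B (0.0644) or gemin2 library B (0.0519). PIP1;2 belongs to a family of similar genes, among which counting can split reads. The locus itself was not called, at -0.56, -0.62 and -0.41 in log2.

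**Figure D2:**
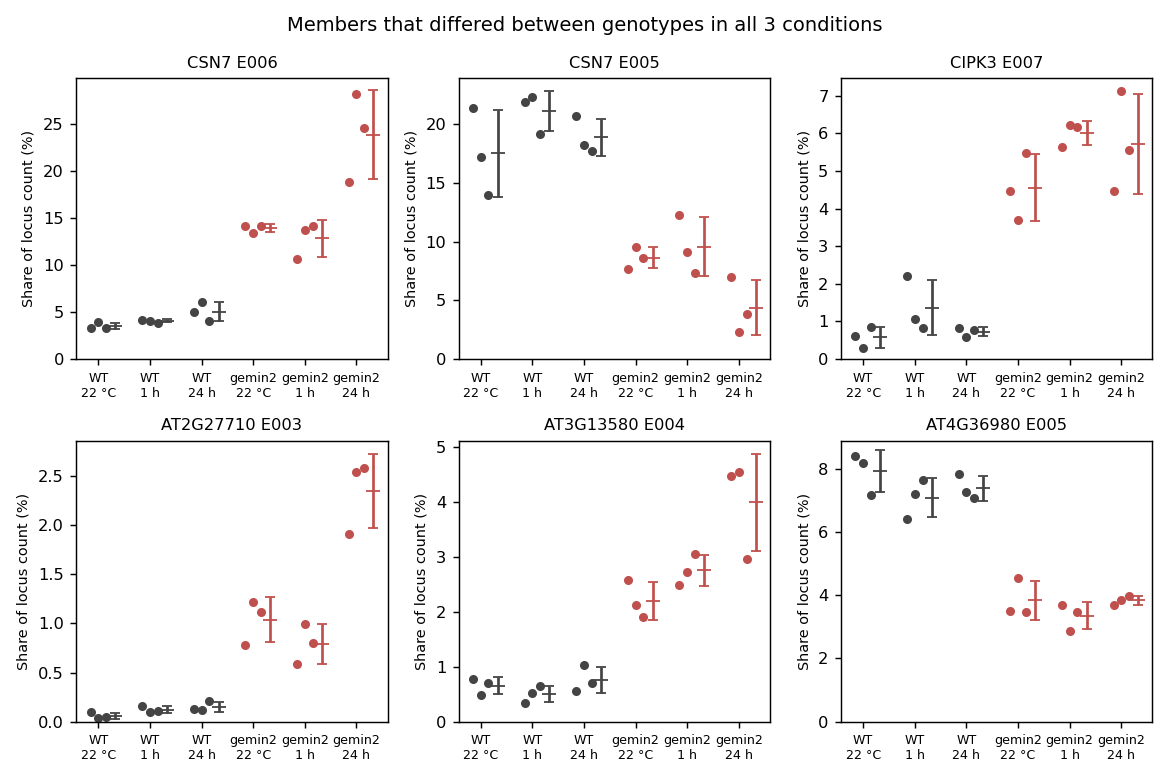
Share of the locus count (vertical axis, percent) in each library (points, A to C from left to right) for 6 members by group (horizontal axis), with the mean and SD beside them (bar). In each panel the gemin2 libraries (red) lie apart from the WT libraries (grey), above them for CSN7 E006, CIPK3 E007, AT2G27710 E003 and AT3G13580 E004 and below them for CSN7 E005 and AT4G36980 E005.

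Among genes that act in RNA processing, AT4G36980 lost share in gemin2. It encodes a protein rich in serine and arginine named for its partner CLK4, a kinase of splicing factors in animals. Its members E006 and E005 are 1 intron with donors 3 bases apart, printed above. The share of E005 in WT was 8.41%, 8.18% and 7.17% at 22 °C, 6.42%, 7.19% and 7.64% after 1 h and 7.83%, 7.25% and 7.06% after 24 h. In gemin2 it was 3.50%, 4.55% and 3.45% at 22 °C, 3.70%, 2.88% and 3.46% after 1 h and 3.70%, 3.84% and 3.96% after 24 h, below all 9 WT values. The log2 change was -1.04 ± 0.13 (adjusted p = 2.87e-05), -1.08 ± 0.13 (adjusted p = 9.25e-06) and -0.94 ± 0.14 (adjusted p = 0.000121).

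The 3 bases of AT4G36980 E006 were lower by 0.98 ± 0.21 in log2 after 1 h (log2 change -0.98, adjusted p = 0.00744). Their calls at 22 °C (-0.88 ± 0.21, adjusted p = 0.0267) and after 24 h (-0.81 ± 0.24, adjusted p = 0.0481) were fragile. The first was lost without WT library B (0.0545) or C (0.116), without gemin2 library A (0.0576), B (0.108) or C (0.0895), and without the 3 libraries that stood apart (0.0634). The call after 24 h was lost in 13 of 18 fits that each left out 1 library, with an adjusted p of up to 0.163 without WT library A of 24 h. These 13 were all 3 libraries of both 24 h groups and of gemin2 at 22 °C, WT library B at 22 °C and after 1 h, and gemin2 libraries B and C after 1 h.

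AT5G59950 encodes an RNA-binding protein of the ALY type, adaptors of mRNA export. In it E006, 196 bases at chr5:24140406-24140601 that are exonic in 1 transcript, rose while the 6 bases before it, E005, fell. AT5G59950 E006 was chosen after its values were seen. Its share after 24 h was 1.67%, 1.72% and 1.76% in WT and 3.56%, 3.66% and 4.12% in gemin2, with no overlap (log2 change 1.14 ± 0.19, adjusted p = 0.000491). The share of E005 there was 30.7%, 27.7% and 28.3% in WT and 22.0%, 18.6% and 22.0% in gemin2 (-0.47 ± 0.10, adjusted p = 0.00680, lost at 0.0635 without gemin2 library B). The locus of AT5G59950 fell by 1.24 in log2 in the same comparison (adjusted p = 1.37e-09). Without the locus count as offset, the E006 bin itself had a log2 change of -0.085, which was not called, so the higher share stands beside a lower count of the locus and not a higher count of the bin.

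The remaining members that were higher in gemin2 in all 3 conditions came from 4 loci. MDAR6, a monodehydroascorbate reductase of the ascorbate cycle, held few counts, with 3 over the WT libraries at 22 °C and 39 in gemin2. The share of MDAR6 E018 was 0.0322%, 0.0732% and 0% in WT and 0.201%, 0.481% and 0.364% in gemin2 at 22 °C, and 0.171% ± 0.0252 against 0.652% ± 0.0780 (SD, n = 3) after 1 h. The log2 change after 1 h was 1.89 ± 0.41 (adjusted p = 0.00702). At 22 °C the call (adjusted p = 0.00823) was lost without gemin2 library B (0.0516), and after 24 h (2.47 ± 0.54, adjusted p = 0.00631) without WT library B (0.0532) or gemin2 library B (0.0917). AT4G10430 E006, in a gene for a membrane protein, was higher by 2.35 ± 0.46, 2.23 ± 0.44 and 2.20 ± 0.47 in log2, from 0.917% ± 0.399 to 4.78% ± 1.44 at 22 °C (adjusted p = 0.00424, 0.00400 and 0.00458).

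The other loci were AT3G10915, of the reticulon family that shapes the endoplasmic reticulum, and AT2G33620, for a DNA-binding protein with an AT hook. AT3G10915 E007 was higher by 2.31 ± 0.48, 1.75 ± 0.39 and 1.59 ± 0.43 in log2. At 22 °C (adjusted p = 0.00835) its call was lost without WT library A (0.0535), and after 24 h (adjusted p = 0.0280) without WT library A (0.0835) or B (0.151) or gemin2 library B (0.0750) or C (0.0613), without the 3 libraries that stood apart (0.0526) and when only those groups were fitted (0.118). AT2G33620 E005 rose from 4.20% ± 0.445 to 11.4% ± 2.49 at 22 °C, by 1.45 ± 0.26 in log2 (adjusted p = 0.00266), and by 1.71 ± 0.25 and 1.58 ± 0.29 in the cold. It overlaps another gene, so its reads are uncertain.

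Lower shares at 22 °C were also seen in CHLM, an enzyme of chlorophyll synthesis, and RLM3, a disease resistance protein. CHLM E007, 43 bases of the 3′ untranslated region, had 1.46%, 1.80% and 1.48% in WT and 0.804%, 0.707% and 0.782% in gemin2, without overlap (log2 change -1.04 ± 0.16, adjusted p = 0.000483). RLM3 E010 had 3.56%, 4.08% and 2.80% in WT against 1.06%, 1.42% and 1.25% in gemin2 (-1.47 ± 0.26, adjusted p = 0.00210). AFT1, a 14-3-3 protein, was lower in E003 at 22 °C, at 0.560% ± 0.122 against 0.214% ± 0.0102 (SD, n = 3; log2 change -1.37 ± 0.32, adjusted p = 0.0193). This last call was lost without WT library B (0.0949) or gemin2 library A (0.0669), B (0.0587) or C (0.0781).

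**Figure D3:**
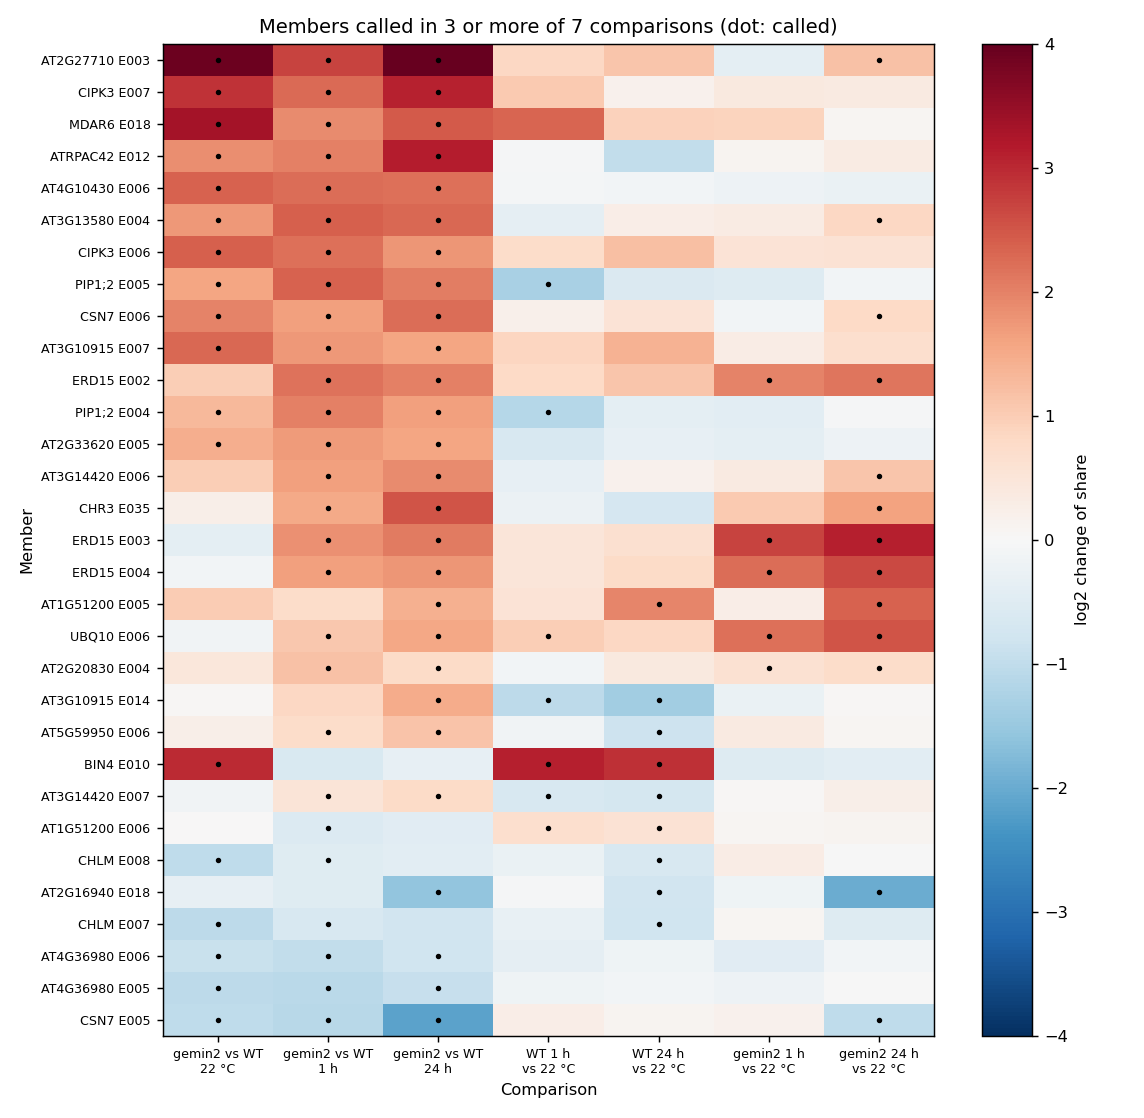
Log2 change of the share (colour, red higher and blue lower) of the 31 members called in 3 or more of 7 comparisons (vertical axis), ordered by their mean over the 3 genotype comparisons, with a dot where the member was called. The columns (horizontal axis) within a genotype share their 22 °C libraries, and CSN7 E005, AT4G36980 and CHLM are blue in the genotype columns while AT2G27710 E003 is the deepest red.

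Sorted by their ends, members that open with a donor held most of the rises, as did bins that open with a donor among all tested bins. After 1 h, 31 of the 226 members with donor and acceptor were higher in gemin2 (13.7%) and 4 lower (1.77%), and 11 of the 73 with a donor alone were higher (15.1%) and 3 lower. Of the 272 with an acceptor alone, 14 were higher (5.15%) and 8 lower (2.94%). After 24 h the same classes had 31 (13.7%), 13 (17.8%) and 9 (3.31%) higher members, and at 22 °C 11 (4.87%), 2 (2.74%) and 4 (1.47%). All tested bins with the same ends had shares of 8.51%, 8.46% and 3.05% higher after 1 h. After 24 h these background shares were 7.16%, 6.97% and 1.43%, and at 22 °C 2.69%, 2.49% and 0.713%. Lower members made up 1.77%, 4.11% and 2.94% of these classes after 1 h, against 1.90%, 0.995% and 3.18% of all tested bins. After 24 h it was 1.33%, 2.74% and 0.735% against 1.10%, 0.995% and 0.973%. At 22 °C it was 1.33%, 2.74% and 1.47% against 0.857%, 0.498% and 0.649%. Of the 44 with neither, 2 were higher and 1 lower after 1 h, against 5.22% and 3.04% of all tested bins. The difference between classes of ends was not tested.

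**Figure D4:**
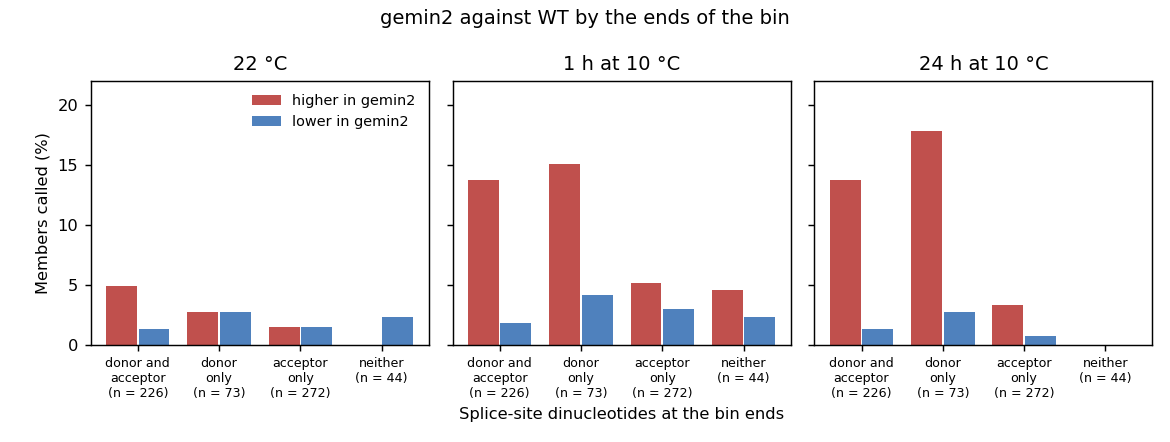
Percentage of members called (vertical axis) as higher (red) or lower (blue) in gemin2 in the 3 conditions (panels), by whether the bin opens with a donor or closes with an acceptor dinucleotide (horizontal axis, with the number of members). Members with a donor reach 13.7% to 17.8% higher in the cold, and those with an acceptor alone 5.15% and 3.31%.

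Most pairs of neighbours in the genome had no call between genotypes, and where there was one, mostly 1 member of the pair was called. Of the 280 touching pairs, 12 were both higher in gemin2 after 1 h and 4 both lower, while 2 moved in opposite directions and 35 had 1 member called. After 24 h, 12 pairs were both higher, 2 both lower and 2 opposite, and 25 had 1 member called. Touching pairs among all tested bins were not counted, and touching bins can share reads. Within a whole locus, opposite calls between genotypes were found in CSN7 in all 3 conditions, in MLP28 and UBQ10 after 1 h and in AT5G59950 after 24 h. MLP28 has near-identical relatives, and UBQ10 is built of repeats, so counting can split their reads and their shares are uncertain.

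In WT, more members fell than rose with cooling. After 1 h at 10 °C, 14 members were higher and 24 lower than at 22 °C, which is 6.18% against 5.54% of all tested bins (2.39% higher and 3.15% lower). After 24 h, 6 were higher and 17 lower, which is 3.74% against 2.94% (1.5% higher and 1.44% lower). Both times are compared with the same 22 °C libraries. The count after 1 h was 9 without WT library B of 22 °C, 11 without C, 6 (3 higher and 3 lower) without library A of 1 h and 2 without B. Without the locus count as offset, 31 were higher and 25 lower after 1 h. After 24 h it was 14 without library A of 22 °C and 9 (5 higher and 4 lower) without library C of 24 h, and 8 when the fit held only those 2 groups.

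In gemin2, 5 members in 3 loci were higher and 0 lower after 1 h, which is 0.813% against 0.578% of all tested bins (0.551% higher and 0.0263% lower). At an unadjusted p under 0.05 there were 51 members, and DESeq2 called 6 higher and 0 lower. After 24 h, 23 were higher and 9 lower, which is 5.20% against 4.41% (3.1% higher and 1.31% lower). The count after 24 h was 17 without gemin2 library A of 22 °C, 21 without library C and 19 without the 3 libraries that stood apart. That a member was called in 1 genotype does not show that the genotypes responded differently, for which the interactions below are the test.

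The 5 members called in gemin2 after 1 h lay in ERD15, UBQ10 and AT2G20830. ERD15, a small protein induced early in dehydration, had 3 touching members, E002 to E004, in its 5′ untranslated region, each opening with a donor. The share of ERD15 E004, the last 210 bases, was 0.473%, 0.336% and 0.683% in gemin2 at 22 °C, 2.16%, 2.28% and 2.50% after 1 h and 2.31%, 3.15% and 3.53% after 24 h. In WT it was 0.265%, 0.936% and 0.448%, then 0.703%, 0.671% and 0.851%, then 0.674%, 0.963% and 1.01%. The gemin2 libraries in the cold stood above all others. E004 rose in gemin2 by 2.24 ± 0.27 after 1 h (adjusted p = 7.74e-05) and 2.63 ± 0.27 after 24 h (adjusted p = 5.38e-06), E003 by 2.69 ± 0.33 and 3.10 ± 0.34, and E002 by 2.00 ± 0.26 and 2.14 ± 0.28. The changes of the 3 members in WT were not called. For E004 after 24 h the WT change was a rise of 0.75 (adjusted p = 0.194), with library B high at 22 °C. The authors' deposited table lists this rise at 1.34 with a false discovery rate of 0.00324. Between the genotypes at 22 °C the change of E004 was -0.12 ± 0.35, and it was higher in gemin2 by 1.64 ± 0.23 after 1 h (adjusted p = 8.92e-05) and 1.75 ± 0.25 after 24 h (adjusted p = 7.46e-05). The ERD15 locus itself rose by 1.13 in log2 in gemin2 after 1 h.

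UBQ10, a polyubiquitin gene, had a similar course in E006, 16 bases at chr4:2718543-2718558 that are exonic in 1 transcript. Its share in gemin2 was 0.0777%, 0.123% and 0.131% at 22 °C, 0.528%, 0.520% and 0.472% after 1 h and 0.575%, 0.718% and 0.587% after 24 h, a rise of 2.20 ± 0.21 (adjusted p = 3.21e-06) and 2.51 ± 0.21 (adjusted p = 3.76e-07) in log2. In WT it was 0.162%, 0.133% and 0.0680%, then 0.272%, 0.236% and 0.215%, then 0.221%, 0.198% and 0.234%. The WT rise after 1 h, by 0.99 ± 0.23 (adjusted p = 0.0186), was lost without WT library B (0.0516) or C (0.0953) of 22 °C or library A (0.0705) or B (0.0683) of 1 h. AT2G20830, a folate-binding transferase, completed the early set, at 31.4% ± 2.14 and 48.2% ± 6.51 in E004 (SD, n = 3; 0.62 ± 0.13, adjusted p = 0.0305). That call was lost without gemin2 library A (0.152), B (0.240) or C (0.0780) of 22 °C or B (0.203) or C (0.0783) of 1 h, when only those groups were fitted (0.0643), and without the locus offset (0.32, adjusted p = 0.337). After 24 h AT2G20830 E004 rose by 0.73 ± 0.13 (adjusted p = 0.00215).

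**Figure D5:**
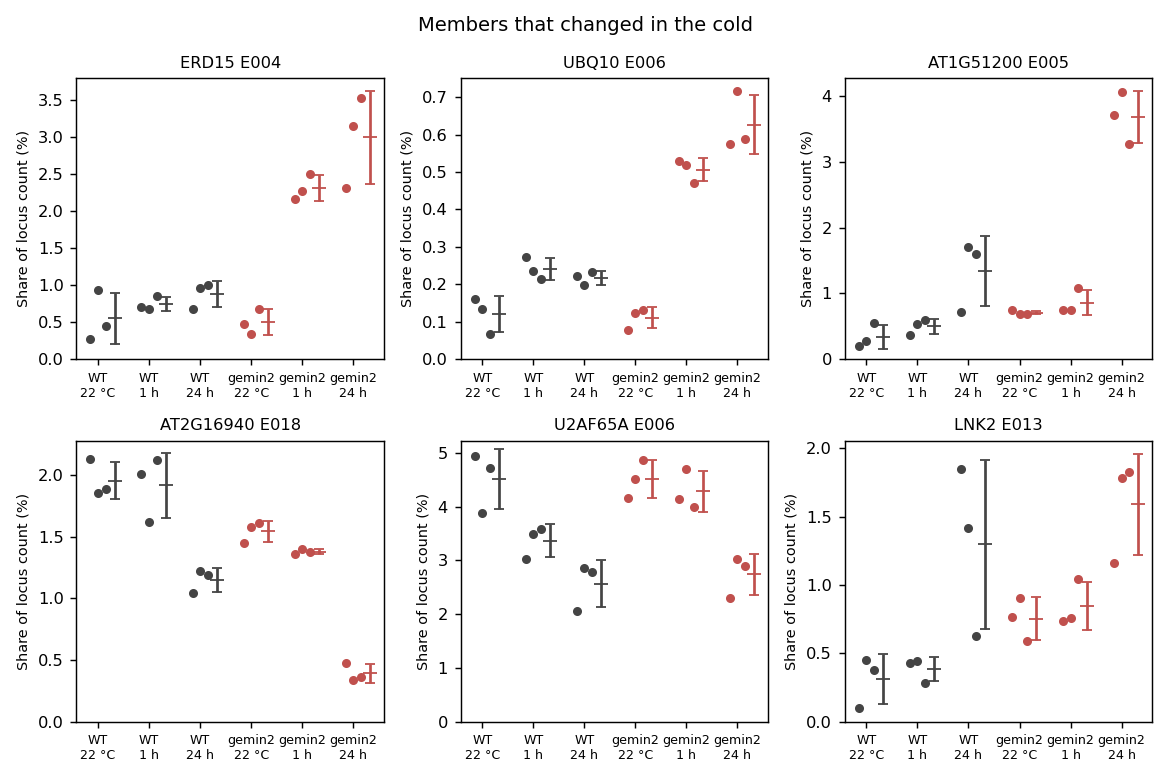
Share of the locus count (vertical axis, percent) in each library (points, A to C from left to right) for 6 members that changed in the cold, by group (horizontal axis), with the mean and SD beside them (bar), WT in grey and gemin2 in red. ERD15 E004, UBQ10 E006 and AT1G51200 E005 climb with cold in gemin2, AT2G16940 E018 and U2AF65A E006 fall after 24 h, and LNK2 E013 rises in WT after 24 h.

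Members in 2 splicing factor genes fell after 24 h in the cold. U2AF65A is the large subunit of the factor that binds the pyrimidine-rich stretch before an acceptor, and its E006 is the 173-base bin with an acceptor printed above. The share of E006 was 4.93%, 3.89% and 4.72% in WT at 22 °C and 2.06%, 2.86% and 2.79% after 24 h, without overlap (log2 change -0.81 ± 0.15, adjusted p = 0.00677). In gemin2 it was 4.16%, 4.52% and 4.87%, then 2.30%, 3.02% and 2.89% (-0.71 ± 0.15, adjusted p = 0.00726). The gemin2 call was lost without the 3 libraries that stood apart (-0.56, adjusted p = 0.117) and without the locus count as offset (-0.24, adjusted p = 0.265). Between the genotypes at 22 °C the change was -0.01 ± 0.15, which was not called.

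AT2G16940, a CC1-like splicing factor, had 2 touching members that fell in gemin2. The share of AT2G16940 E018, 39 bases with a donor, was 2.12%, 1.85% and 1.88% in WT at 22 °C and 1.04%, 1.22% and 1.19% after 24 h. In gemin2 it was 1.45%, 1.58% and 1.61% at 22 °C, 1.36%, 1.40% and 1.38% after 1 h and 0.478%, 0.336% and 0.362% after 24 h, the lowest values of any group. E018 fell by 2.00 ± 0.19 in log2 in gemin2 (log2 change -2.0, adjusted p = 1.38e-06). In WT the change was -0.75 ± 0.17 (adjusted p = 0.0180), lost without library A of 22 °C (0.0647), without library A (0.0519) or C (0.0509) of 24 h and when only those groups were fitted (0.106). The neighbouring E017 changed by -1.79 ± 0.28 in gemin2 (adjusted p = 0.000368), and in WT its change of -0.76 was not called (adjusted p = 0.0934). After 24 h both were lower in gemin2 than in WT, by -1.70 ± 0.28 for E017 (adjusted p = 0.000407) and -1.59 ± 0.20 for E018 (adjusted p = 1.72e-05).

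LNK2 (AT3G54500), a co-activator of the circadian clock, gained share of its alternative intron E013 in WT. The share was 0.104%, 0.452% and 0.382% at 22 °C and 1.85%, 1.41% and 0.627% after 24 h, without overlap, and the locus fell by 1.67 in log2 (adjusted p = 1.99e-10). The log2 change of the share was 2.01 ± 0.43 (adjusted p = 0.0118), and the call was lost without library B of 24 h (0.0735) and when only those groups were fitted (0.0779). Without the locus count as offset, the LNK2 bin itself changed by 0.38, which was not called (0.553). In gemin2 the share was 0.755% ± 0.157, 0.845% ± 0.175 and 1.59% ± 0.370 (SD, n = 3), and no change was called.

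AT1G51200, with A20 and AN1 zinc fingers of the kind found in stress-associated proteins, had a 162-base member in its 5′ untranslated region that rose after 24 h in both genotypes. The share of AT1G51200 E005 was 0.191%, 0.273% and 0.547% in WT at 22 °C and 0.721%, 1.70% and 1.59% after 24 h (log2 change 1.97 ± 0.37, adjusted p = 0.00677, and 0.0516 when only those groups were fitted). In gemin2 it was 0.741%, 0.692% and 0.689%, then 3.71%, 4.06% and 3.27% (2.37 ± 0.27, adjusted p = 1.24e-05). Cold and 22 °C libraries did not overlap in either genotype, which the rule for naming required. ATIPK2A, an inositol polyphosphate kinase, lost share of E008 in both, from 9.87% ± 3.12 to 3.27% ± 1.38 in WT (-1.57 ± 0.32, adjusted p = 0.0105) and from 13.4% ± 1.25 to 5.90% ± 1.72 in gemin2 (-1.14 ± 0.27, adjusted p = 0.0143). The gemin2 call was lost without library A of 22 °C (0.0715) or of 24 h (0.0610), without the 3 libraries that stood apart (0.117) and without the locus offset (0.0694).

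Falls after 1 h in WT included members of PIP1;2, CA2, AT3G14420 and FYD. PIP1;2 E005 was lower by 1.3 ± 0.34 (log2 change -1.3, adjusted p = 0.0271), a call lost without library B (0.0756) or C (0.115) of 22 °C or A (0.0949) or B (0.132) of 1 h. CA2, a carbonic anhydrase, had 14%, 15% and 14.2% at 22 °C and 7.63%, 6.39% and 9.61% after 1 h in E012, a 3-base bin closed by an acceptor (-0.87 ± 0.13, adjusted p = 0.00376). In gemin2 the same bin had 13.6% ± 0.281 and 12.1% ± 1.62 (SD, n = 3), and after 1 h it was higher than in WT by 0.62 ± 0.13 (adjusted p = 0.00505). Without the locus count as offset the fall of the CA2 bin in WT was -0.26 and its genotype change after 1 h -0.25, neither of them called, and the locus was lower in gemin2 by 0.90 (log2 change -0.90, adjusted p = 0.000223). CA2 E012 was chosen after its values were seen.

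AT3G14420, a glycolate oxidase of photorespiration with a near-identical neighbour that can take its reads, had less of both bins of the printed intron. E009 was lower by 1.46 ± 0.33 (log2 change -1.46, adjusted p = 0.0186), a call lost without library C of 22 °C (0.0855) or A (0.0719) or B (0.0628) of 1 h. E010 was lower by 0.86 ± 0.23 (log2 change -0.86, adjusted p = 0.0343). The call of E010 was lost without library B (0.0652) or C (0.197) of 22 °C or A (0.152) or B (0.120) of 1 h and without the locus offset (0.198). FYD E006 had 9.84%, 12.4% and 8.12% at 22 °C and 5.07%, 5.59% and 6.07% after 1 h (-0.84 ± 0.20, adjusted p = 0.0210), a call lost without library B of 22 °C (0.0980) or A (0.0790) or B (0.0894) of 1 h or without the locus offset (-0.25, adjusted p = 0.465). In gemin2 after 1 h it had 9.50%, 14% and 10.3%, above every WT library of that time (1.00 ± 0.18, adjusted p = 0.00188).

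The interaction asks whether the change with cold differs between gemin2 and WT, and no member passed it. edgeR's quasi-likelihood test called 0 of 615 for the 1 h interaction, against 0% of all tested bins, and 0 for the 24 h interaction, against 0.0525%. At an unadjusted p under 0.05 there were 57 and 70 members, and DESeq2 called 6 and 8. The smallest adjusted p for 24 h belonged to UBQ10 E006 (1.67 ± 0.32, adjusted p = 0.0559 by edgeR and 0.000600 by DESeq2) and to AT2G16940 E018 (-1.24 ± 0.26, adjusted p = 0.0834 by edgeR and 0.0351 by DESeq2). ERD15 E004 had 1.76 ± 0.42 for 1 h (adjusted p = 0.173 by edgeR and 0.0242 by DESeq2) and 1.87 ± 0.43 for 24 h (adjusted p = 0.115 and 0.00330). FYD E006 had 1.20 ± 0.27 for 1 h (adjusted p = 0.173 and 0.0343). Without the 3 libraries that stood apart, edgeR called 5 and 3 members. The differences in response between the genotypes that the shares of ERD15 and UBQ10 show are therefore called by DESeq2 and not by edgeR.

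AT1G10522 E003 moved with 1 library, and BIN4 E010 held few counts. AT1G10522 had 21.6%, 3.76% and 6.84% of its E003 in gemin2 after 24 h and 13.5%, 3.57% and 3.04% after 1 h, with library A far above B and C. Its log2 change from 22 °C in gemin2 was 2.46 ± 0.63 after 24 h (adjusted p = 0.0269). The call was lost without gemin2 library A of 24 h (0.263), without gemin2 library A (0.0823), B (0.0705) or C (0.116) of 22 °C, and without the 3 libraries that stood apart (0.236). BIN4 E010 had 0%, 0% and 2.16% in WT at 22 °C and 6.92% to 9.43% in gemin2, on 3 and 37 counts, and 5.21% to 11.2% in WT after 1 h. Its share was called higher in gemin2 at 22 °C (log2 change 3.00, adjusted p = 0.0328). In WT it was called higher after 1 h (3.11, adjusted p = 0.0210) and after 24 h (2.92, adjusted p = 0.0342). These calls share the WT libraries at 22 °C, and how they depend on single libraries was not followed.

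Lists of genes for pathways that cold or splicing could touch were searched for members. The share of all genes that hold a member was not computed, so these counts have no background beside them. Of 32 clock genes 1 had members (2 bins, 1 called, LNK2 E013), and of 29 genes for SR proteins, hnRNPs and U2AF 3 had members (8 bins, 1 called, U2AF65A E006). Of 23 snRNP genes 1 had 2 members, of 24 cold genes 1 had 2 and of 14 light genes 2 had 5. None of these 9 was called in any of the 7 comparisons, while 137 of all 615 members were called in at least 1. None of the 22 flowering genes and none of the 8 genes for nonsense-mediated decay and the exon junction held a member. The members with the highest share were E004 of AT1G22140, E005 of AT2G13100 and E005 of delta-ADR, with means of 67.8%, 62.9% and 59.7%, and their changes between genotypes at 22 °C were -0.09, 0.06 and 0.07 in log2, none of them called.

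The authors' own tests were set beside these calls by position. Depending on the comparison, their listed bins with multiple events reach a false discovery rate of 0.0863 to 0.104. Calls here need an adjusted p under 0.05. The median absolute difference between their log2 changes and those here ran from 0.269 (gemin2 against WT at 22 °C) to 0.582 (WT after 24 h). The percentages below therefore compare unlike thresholds and differing estimates. The authors' deposited table for gemin2 against WT at 22 °C lists 61 of the members, with the same sign as here for all 61, and 23 of them are called here, which is 37.7% of those listed and 85.2% of the 27 called. The authors' deposited table for 1 h lists 71, all of the same sign, with 37 called here (52.1% of those listed and 50% of the 74 called), and that for 24 h lists 85, all of the same sign, with 50 called here (58.8% and 83.3%). In the authors' deposited table for WT after 1 h, all 39 listed members have the same sign and 14 are called here (35.9% of those listed and 36.8% of the 38 called). For WT after 24 h the authors' deposited table has the same sign in 76 of 79, with 16 called here (20.3% and 69.6%). For gemin2 after 1 h it has the same sign in all 26, with 4 called here (15.4% and 80%), and after 24 h in 76 of 82, with 26 called here (31.7% and 81.2%). The authors' deposited table gives AT2G27710 E003 a log2 change of 3.27 at 22 °C with a false discovery rate of 7.48e-13. The counts are the same as those tested here, so this is no independent check.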

How the data were processed

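Per the submitters' processing notes, reads were aligned with TopHat2 2.0.9 to TAIR10 and handled in R 3.0.2 with edgeR 3.4.2. Which program counted the reads, and whether by strand, is not given in the sources used here, and the labels name a kit without strand marks. The deposited tables give the authors' raw count of reads per gene and per alternative splicing bin in each library. Further deposited tables give the authors' fold changes, read as log2 since the base is not stated, and the authors' p-values as false discovery rates, used here for comparison alone. In the authors' 1 h table of gemin2 against WT, the bin names of all 522 entries belong to another locus than their position, so all tables were matched by locus, start and end. The event labels of 20 entries in the WT 1 h table differ from the count table, whose labels were used.

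Columns carry letters A to C, which no source used here ties to replicate numbers, so libraries are named by letter. Bins of all events that passed the minima were fitted together (3809 bins, 6 groups, 18 libraries) with edgeR 4.0.16 (limma 3.58.1, R 4.3.3), the log count of the locus entering as offset. Two-sided quasi-likelihood tests were adjusted by Benjamini-Hochberg over all bins and called under 0.05, and each SE is the change divided by the root of its F value. Loci were tested on gene counts with TMM factors. On simulated data for gemin2 against WT at 22 °C over 3809 bins, 39.5%, 68.5% and 98.5% of changes of 1.5, 2 and 4 times were recovered. These were 81, 54 and 65 changed bins, and 6 of 3609 unchanged bins were called. The recovery holds for the simulated counts alone. It may be lower in the real libraries, some of which stood apart, and for members with few counts, which was not tested.

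The members, gene lists and tests were chosen with earlier results of these data known. Named per comparison were the 6 largest rises and 6 largest falls averaging 20 counts or more whose groups did not overlap, called members of the lists, the 5 members called most often and the 3 with the highest share. The text leaves out some for length. MDAR6 E018, AT2G33620 E005, AT3G10915 E007, AT4G36980 E006 at 22 °C, FYD E006, CA2 E012, AT5G59950 E006, BIN4 E010 and the MLP28 members were chosen after their values were seen. So were some values of members that the rule names in another comparison: PIP1;2 E004 and E005 between genotypes, except E005 after 1 h, CIPK3 E006, AT4G10430 E006 and AT2G20830 E004 after 24 h, ATRPAC42 E012 after 1 h, AT3G13580 E004 at 22 °C, AT3G14420 E010 in WT after 1 h and AT2G16940 E018 in WT. The alternatives were DESeq2 1.42.0, other minima, other offsets, a size threshold, fits of the compared groups only, a replicate block, and leaving out each library.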

Additional observations from a re-analysis of the deposited data

How the results depend on the processing

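The counts in this section have no share of all tested bins beside them, which was taken for the main fit alone. They therefore do not compare members with other bins. A mean of at least 50 counts per bin leaves fewer bins to test. With it, 14 (7 higher and 7 lower), 48 and 18 members were called between genotypes at 22 °C, 1 h and 24 h. After 24 h, 13 were called in WT and 12 in gemin2, and 1 for the 24 h interaction. Without the locus count as offset, with TMM or RLE factors, the test is of the bin count itself. It called 86 and 86 members at 22 °C (39 higher and 47 lower), 147 and 146 between genotypes after 24 h, 255 and 255 in WT and 265 and 267 in gemin2 after 24 h, 25 and 25 in gemin2 after 1 h, and 31 and 33 for the 24 h interaction. For WT after 1 h it gave 31 higher and 25 lower calls with TMM, and for genotypes after 1 h 69 and 41. With an absolute log2 change of at least 1, 40 were called between genotypes after 1 h, and 13 and 11 in WT after 1 h and 24 h. DESeq2 called 35 in WT after 24 h, and 6 and 8 for the interactions, and fits of the compared groups only gave 8 in WT after 24 h (19 higher and 21 lower between genotypes at 22 °C). A replicate block on the library letter called 50, 122 and 99 between genotypes, 41 in WT after 24 h and 4 for the 24 h interaction. No source used here says that a letter marks a shared planting or day. Of 45 pairs of the same letter 5 had a correlation of deviations over 0.1, so the letters were not taken as pairs, while 10 of 18 libraries correlated best with their own letter, a hint of pairing from the data. Without the 3 libraries that stood apart, 134 and 123 were called between genotypes after 1 h and 24 h, 41 in WT and 19 in gemin2 after 24 h, and 5 and 3 for the interactions. Leaving out each library in turn gave 14 to 36, 30 to 126 and 43 to 105 between genotypes, 2 to 48 and 9 to 28 in WT, 4 to 6 and 17 to 37 in gemin2, and 0 to 2 and 0 to 3 for the interactions. Of 3699 values of 139 named changes under alternatives, 3345 kept direction and call, 348 kept direction and lost the call and 6 reversed, all of them without the locus offset and none of them called. These were CA2 E012 between genotypes after 1 h (-0.25 with TMM and -0.25 with RLE) and AT5G59950 E006 between genotypes after 24 h (-0.085 and -0.092) and in WT after 24 h (0.036 and 0.041). Members with few counts are limited by depth, as for MDAR6 E018 and BIN4 E010. The cause of the shifts between settings was not tested.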

Other observations

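Members that were not described above also differed after 24 h, 1 of them within gemin2 and the others between genotypes. AT4G38510 E017, in a gene for a subunit of the vacuolar proton pump, had 1.81%, 1.88% and 1.74% at 22 °C and 0.831%, 0.611% and 1.08% after 24 h, without overlap in gemin2 (log2 change -1.10 ± 0.22, adjusted p = 0.00509). UKL3 E005, in a uridine kinase-like gene, had 0.955%, 2.15% and 3.14% in WT and 15.9%, 10.5% and 8.32% in gemin2 after 24 h (2.38 ± 0.48, adjusted p = 0.00298). AT5G44290 E009, in a protein kinase gene, had 0.302%, 0.407% and 0.467% in WT and 2.35%, 3.16% and 1.70% in gemin2 after 24 h (2.57 ± 0.48, adjusted p = 0.00139).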
